A study of Homo sapiens with 6 samples.

Results

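Antisense long noncoding RNA genes were examined together with the sense genes after which they are named, in HCCLM3 cells that overexpressed LINC00862. The antisense genes were those whose name ends in -AS1, leaving out names that start with HOX, ZNF or LINC, and they were chosen by a sum of at least 500 counts over the 6 libraries and by a sense gene listed in the same table. Of 35856 genes in the table, 914 have names ending in -AS1, 885 remained after the name filter, 206 of these reached 500 counts and 201 of those had a sense gene listed. The selection on counts used both groups at once, so a gene low in 1 group had to be high in the other to enter: 126 of the 201 had at least 250 counts in each group, 57 were under 250 in NC and 18 were under 250 in LINC00862. The sums ran from 515 to 49440 with a median of 1363. Just outside the limit lay SLC25A21-AS1 with 491 counts and ASH1L-AS1 with 498, and just inside it STXBP5-AS1 with 515 and UCKL1-AS1 with 516.

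The HCCLM3 line is an established line of human hepatocellular carcinoma. Poly(A) RNA was sequenced from 3 libraries named NC and 3 named LINC00862 in the labels, whose treatment protocol, the same for all 6, gives transfection with a LINC00862 vector or an empty one. The titles give NC no further description. Nothing in the sources says that the libraries of a group came from separate cultures, so the p-values measure the spread between these libraries, which may be technical. Each group consists of its own cells, so an effect of LINC00862 and any other difference between the cells of both groups cannot be told apart. All 6 libraries are labelled HCCLM3, but cell type markers differed widely between the groups, with mean FPKM of 539 in NC and 3.77 in LINC00862 for VIM, 42.2 and 0.101 for THY1, and 0.547 and 160 for EPCAM. Whether the cells of both groups were of the same line was not tested, which bears on every fold change given here.

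Antisense RNAs are transcribed from the strand opposite to a gene, either from inside it, across its end, or away from it out of a shared promoter region. Head-to-head pairs lie on both sides of a bidirectional promoter, from which RNA polymerase II can start in each direction, and tail-to-tail pairs overlap at their ends. Some antisense RNAs are known to act on their sense gene in cis, through chromatin, transcription or RNA duplexes, while many have no assigned function.

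Sequence upstream of the sense gene is shown for 5 head-to-head pairs. Each sequence is the 250 bases directly upstream of the sense gene's start in RefSeq (GRCh38.p14), written 5′ to 3′ on the sense gene's strand, with matches to 4 motifs in capitals. These were the CCAAT box (CCAAT), the GC box (GGGCGG), the core of the ETS family's motif (CCGGAAG) and the TATA box (TATAAA). Each was searched on both strands, so that capitals also mark the reverse complements. GC boxes can overlap each other. SNTG2, H1-10 and STXBP5 are shown because, among pairs with starts within 1000 bases, they belong to the pairs that rose or fell together most. The FZD10 pair also belongs to these. MNX1 and UBA6 were added after their values were seen, MNX1 because both genes of the pair rose and UBA6 because its pair moved in opposite directions.
SNTG2 (chr2:950599-950848, plus strand): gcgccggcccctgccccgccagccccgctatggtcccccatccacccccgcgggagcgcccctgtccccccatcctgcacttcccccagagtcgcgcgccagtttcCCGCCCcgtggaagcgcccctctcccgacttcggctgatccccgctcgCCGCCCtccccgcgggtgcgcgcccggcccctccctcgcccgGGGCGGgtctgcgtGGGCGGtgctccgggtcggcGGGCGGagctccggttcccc
MNX1 (chr7:157010664-157010913, minus strand): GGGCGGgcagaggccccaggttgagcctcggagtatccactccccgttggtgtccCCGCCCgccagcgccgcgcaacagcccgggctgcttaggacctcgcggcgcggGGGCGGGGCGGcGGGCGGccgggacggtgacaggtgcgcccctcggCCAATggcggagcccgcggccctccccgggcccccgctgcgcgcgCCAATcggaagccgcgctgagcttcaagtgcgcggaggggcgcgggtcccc
UBA6 (chr4:67701156-67701405, minus strand): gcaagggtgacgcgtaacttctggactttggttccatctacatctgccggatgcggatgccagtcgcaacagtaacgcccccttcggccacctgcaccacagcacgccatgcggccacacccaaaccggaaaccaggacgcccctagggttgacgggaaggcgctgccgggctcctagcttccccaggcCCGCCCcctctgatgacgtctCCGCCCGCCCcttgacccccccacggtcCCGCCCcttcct
H1-10 (chr3:129316287-129316536, minus strand): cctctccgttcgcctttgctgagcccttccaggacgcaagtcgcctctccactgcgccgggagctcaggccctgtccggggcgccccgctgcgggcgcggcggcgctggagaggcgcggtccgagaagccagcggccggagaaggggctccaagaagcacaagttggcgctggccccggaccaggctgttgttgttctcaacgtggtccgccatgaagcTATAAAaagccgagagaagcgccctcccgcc
STXBP5 (chr6:147204167-147204416, plus strand): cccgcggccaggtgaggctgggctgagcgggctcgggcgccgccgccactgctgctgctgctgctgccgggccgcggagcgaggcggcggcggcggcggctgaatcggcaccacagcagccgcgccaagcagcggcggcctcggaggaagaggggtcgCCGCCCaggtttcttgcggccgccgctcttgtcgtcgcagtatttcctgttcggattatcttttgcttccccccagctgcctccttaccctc

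All 5 windows were rich in G and C, from 66.4% in UBA6 to 79.6% in SNTG2. The SNTG2 window held 5 GC boxes, the MNX1 window 5 GC boxes and 2 CCAAT boxes, the UBA6 window 4 GC boxes, the STXBP5 window 1 GC box and the H1-10 window 1 TATAAA. By the deposited coordinates MNX1-AS1 starts 142 bases and UBA6-AS1 54 bases upstream of its sense gene, inside the printed window, while SNTG2-AS1 starts 575 bases upstream of SNTG2. STXBP5-AS1 and H1-10-AS1 start within the sense gene, so that those pairs overlap at their 5′ ends. Of 76 head-to-head pairs with starts within 1000 bases, 64 had a sense promoter in the RefSeq table. GGGCGG was in 45 of these 64 windows (70.3%) against 42.6% of all 35116 promoters, and CCGGAAG in 12 (18.8%) against 8.52%. CCAAT was in 20 (31.2%) against 32.0% and TATAAA in 7 (10.9%) against 10.7%. The reference held every promoter of the RefSeq table, with no selection by expression or gene type, so it is unlike the 64 windows in more than the arrangement. The differences were not tested. A match is a match of letters and not an occupied site.

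Counts were compared by the quasi-likelihood test of edgeR, with p-values adjusted by Benjamini-Hochberg over all 20741 genes tested, and a gene is called here when its adjusted p lay under 0.05. Levels are given as FPKM, fragments scaled for transcript length and sequencing depth, which allows levels of different genes to be compared. Fold changes come from the counts. The libraries held 58241123 to 68229070 counts. The level of the LINC00862 transcript was low in both groups, with an FPKM of 0.0214 to 0.0884 in NC and 0.312 to 0.530 in LINC00862. LINC00862 itself had 11, 21 and 6 counts in the NC libraries and 145, 121 and 76 in the LINC00862 libraries, and every LINC00862 library was above every NC library (log2 fold change 3.22, standard error 0.53, adjusted p = 0.000583). The groups differed across most of the transcriptome: 64.2% of all genes tested were called, 34.4% higher and 29.8% lower in LINC00862, and the median log2 fold change over all genes was 0.11. The FPKM of all genes correlated between libraries of the same group at a Spearman coefficient of 0.896 to 0.909 and between groups at 0.754 to 0.767. For the 201 antisense genes alone these were 0.879 to 0.973 and 0.217 to 0.324, which describes genes sharing libraries and no independent replicates. The antisense genes were selected on their counts summed over both groups, so a gene low in either group had to be high in the other. That selection by itself lowers their coefficient between groups. The set of all genes was not selected in this way, so its coefficients cannot be compared with those of the antisense genes.

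Cell type markers moved with the groups. The summed FPKM of 5 mesenchymal markers was 730 to 776 in NC and 14.5 to 19.1 in LINC00862, with 4 of the 5 lower and COL1A1 higher. The 5 epithelial markers summed to 194 to 287 in NC and 437 to 500.2 in LINC00862, with 4 of 5 higher. The 8 hepatocyte markers summed to 2.94 to 3.46 and 539 to 618, with 5 higher and SERPINA1 lower, and fibrinogen beta made up most of the latter sum. AFP and GPC3, markers of fetal liver and hepatoma, stayed under 0.14 FPKM in every library, APOA1 and APOA2 under 0.19, and PTPRC of blood cells and PECAM1 of endothelium under 0.45. The part of these differences in the results on antisense genes was not tested. In bulk RNA, fewer cells that make a transcript and less of it per cell cannot be told apart.

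Most of the antisense genes that changed were higher in LINC00862. All 201 passed the filter on low counts, and 107 (53.2%) were called higher, 28 (13.9%) lower and 66 not called. Their median log2 fold change was 0.95. The share called in either direction, 67.2%, lay near that of all genes, and the split between higher and lower did not. Of all 14452 genes tested with at least 500 counts, 32.4% were higher and 37.8% lower. The selection used the counts tested here, with 57 antisense genes under 250 counts in NC and 18 in LINC00862, so the split only describes the selected genes. This split was close to that of the other long noncoding RNA genes with at least 500 counts, of which 54.4% of 889 were called higher and 17.4% lower with a median of 1.11. Protein-coding genes with at least 500 counts went the other way, 30.6% of 12571 higher and 40.7% lower with a median of -0.21. No test of these shares against each other was made. The sense genes, which were not selected on their counts, split nearly evenly: of 194 that could be tested, 73 (37.6%) were higher and 60 (30.9%) lower, with a median of 0.06. The other 7 sense genes, DLGAP1, FEZF1, FGD5, IDI2, IGFL2, NINJ2 and WEE2, had too few counts to be tested. Of their antisense genes, FEZF1-AS1 (log2 fold change 7.20), WEE2-AS1 (6.74), DLGAP1-AS1 (3.47) and NINJ2-AS1 (2.68) were called higher, IGFL2-AS1 (-6.21) and FGD5-AS1 (-1.10) lower, and IDI2-AS1 (0.81) was not called. FEZF1-AS1 had counts of 0, 0 and 4 in the NC libraries and 184, 235 and 185 in the LINC00862 libraries and WEE2-AS1 0, 0 and 6 in the NC libraries and 259, 232 and 158 in the LINC00862 libraries. Without NC replicate 3, the only NC library with reads of either, their fitted values were 10.72 and 10.80, which are no bounds. IDI2-AS1 had counts of 77, 286 and 122 in the NC libraries and 73, 53 and 624 in the LINC00862 libraries, and its log2 fold change was -1.37 without LINC00862 replicate 3.

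**Figure D1:**
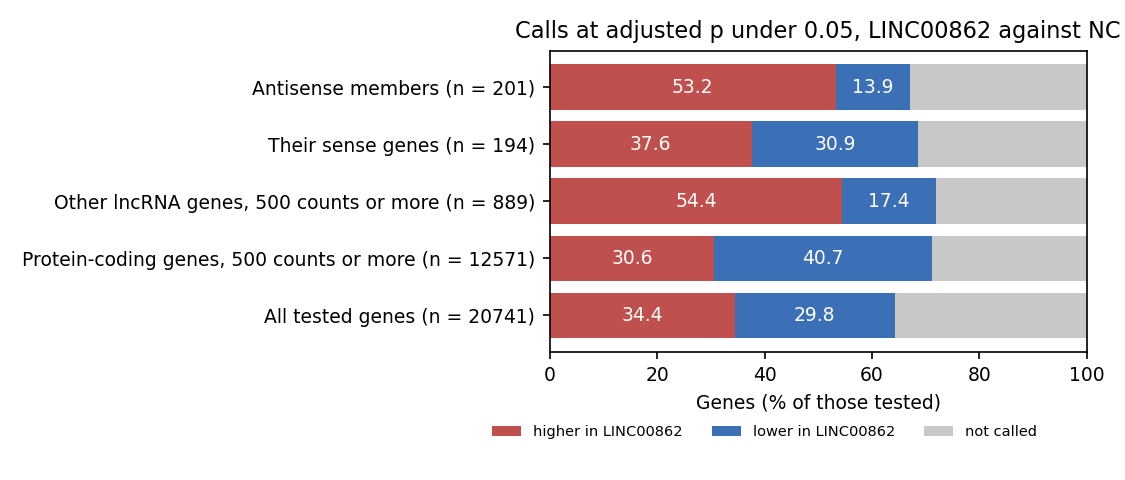
Share of genes (x axis, % of those tested) called higher or lower in LINC00862 or not called, for antisense genes, their sense genes and 3 reference groups (y axis). Antisense genes (53.2% higher) resemble other lncRNA genes (54.4%), and their sense genes (37.6%) lie nearer all genes (34.4%).

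The antisense transcripts were the rarer of the pair. Their median FPKM over the 6 libraries was 0.835 against 4.23 for the sense genes, and in 146 of 201 pairs the antisense gene lay below its sense gene. The antisense gene exceeded its sense gene in 49 pairs by the NC means and in 64 by the LINC00862 means. The library kit marks the second strand, but whether counting used the strand is not given in the sources used here. In the GENCODE 29 annotation 159 pairs share exon sequence, and in those the reads of both genes may not have been told apart.

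Of the 6 largest rises among antisense genes, 5 began from no reads at all in NC. SNTG2-AS1 (ENSG00000235688, chr2:949627-950274, hg38) had counts of 0 in each NC library and 735, 557 and 994 in the LINC00862 libraries, or an FPKM of 0 in each NC library and 17.8, 15.6 and 27.5 in the LINC00862 libraries. Against a floor of 3 counts over the NC group it was at least 813-fold higher (adjusted p = 6.55e-06 by edgeR). SNTG2, which encodes a syntrophin, a scaffold of the dystrophin complex, had counts of 0 in each NC library and 613, 434 and 503 in the LINC00862 libraries and was at least 552-fold higher. The pair is head to head and its spans do not overlap. Neither gene had a read in NC, and both were present in each LINC00862 library.

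MNX1-AS1 (ENSG00000243479, chr7:157010805-157016426) had an FPKM of 0 in each NC library and 9.60, 12.1 and 6.72 in the LINC00862 libraries, at least 736-fold higher in LINC00862. MNX1, a homeobox factor of motor neurons and pancreas, had an FPKM of 0, 0 and 0.0141 in the NC libraries and 2.70, 2.68 and 3.51 in the LINC00862 libraries (log2 fold change 9.03, standard error 0.69, adjusted p = 5.19e-06), and without NC replicate 3, the only NC library with reads of MNX1, the fitted value was 12.84, which is no bound. Every LINC00862 library lay above every NC library for both genes. FZD10-AS1 had counts of 0 in each NC library and 349, 235 and 294 in the LINC00862 libraries, at least 312-fold higher, and FZD10, a Wnt receptor 203 bases away on the other strand, had counts of 0 in each NC library and 99, 112 and 85 in the LINC00862 libraries, at least 105-fold higher. Both genes of this pair were thus detected in 1 group only.

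SOX21-AS1 encloses SOX21, a transcription factor gene of the SRY-box family. The antisense gene had counts of 0 in each NC library and 300, 291 and 221 in the LINC00862 libraries and the sense gene had counts of 0 in each NC library and 79, 61 and 77 in the LINC00862 libraries, at least 289-fold and 77.2-fold higher. Neither gene had a read in NC. FAM222A-AS1 rose without a like rise of its sense gene. Its counts were 0 in each NC library and 266, 306 and 197 in the LINC00862 libraries, at least 274-fold higher, while FAM222A already had reads in NC, with counts of 43, 50 and 42 in the NC libraries and 104, 84 and 89 in the LINC00862 libraries (log2 fold change 1.13, adjusted p = 0.0170). The call of FAM222A was lost when LINC00862 replicate 1 was left out (log2 fold change 1.12) and with a replicate block. The ratio of FAM222A-AS1 to FAM222A changed by 5.94 (standard error 0.48, adjusted p = 3.79e-05) on the log2 scale, by the limma test of ratios set out below.

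DSCAM-AS1, known from breast cancers that express the oestrogen receptor, lies inside the span of DSCAM, a neuronal cell adhesion gene. Its FPKM was 0.145, 0.199 and 0.0346 in the NC libraries and 50.4, 47.3 and 42.4 in the LINC00862 libraries, a mean of 0.126 ± 0.0837 (SD, n = 3) in NC and 46.7 ± 4.03 (SD, n = 3) in LINC00862 (log2 fold change 8.58, standard error 0.40, adjusted p = 2.96e-07). No GENCODE 29 exon of DSCAM overlaps it. DSCAM had counts of 0 in each NC library and 256, 135 and 151 in the LINC00862 libraries, at least 193-fold higher, so the antisense gene reached an FPKM far above that of the gene it lies in. In LINC00862 the mean FPKM of DSCAM was 0.296 ± 0.0818 (SD, n = 3).

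**Figure D2:**
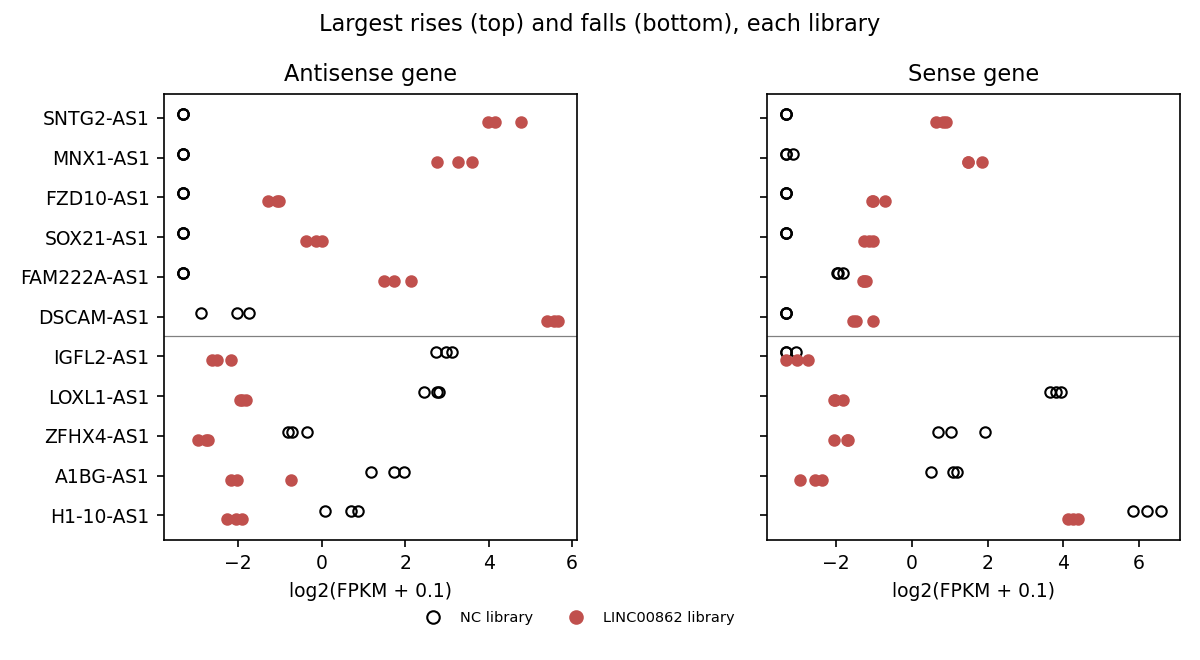
FPKM of each library on a log2(FPKM + 0.1) scale (x axis) for the 6 antisense genes with the largest rises and 5 of the 6 with the largest falls (y axis, left panel) and for their sense genes (right panel), NC as open circles and LINC00862 as filled circles. In the left panel the groups do not overlap for any of the 11 antisense genes, which the rule for naming them required.

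Of the 6 largest falls 5 are described here, led by IGFL2-AS1 and LOXL1-AS1. IGFL2-AS1 (ENSG00000268621, chr19:46189029-46203083) had an FPKM of 6.56, 7.79 and 8.59 in the NC libraries and 0.120, 0.0633 and 0.0746 in the LINC00862 libraries (log2 fold change -6.21, standard error 0.31, adjusted p = 4.64e-07). IGFL2, a gene of the insulin growth factor-like family, had only counts of 0, 0 and 4 in the NC libraries and 0, 4 and 8 in the LINC00862 libraries and was not tested. LOXL1-AS1 (ENSG00000261801, chr15:73908071-73928248) had an FPKM of 6.71, 5.34 and 6.92 in the NC libraries and 0.168, 0.185 and 0.157 in the LINC00862 libraries (log2 fold change -5.02, standard error 0.19, adjusted p = 1.22e-07). LOXL1, a lysyl oxidase that cross-links elastin, had an FPKM of 12.4, 13.8 and 15.3 in the NC libraries and 0.143, 0.182 and 0.141 in the LINC00862 libraries (log2 fold change -6.26, standard error 0.22, adjusted p = 6.79e-08). Both fell in every LINC00862 library below every NC library, and the ratio between them changed by 1.22 (standard error 0.33, adjusted p = 0.0141).

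ZFHX4-AS1 had an FPKM of 0.687, 0.513 and 0.471 in the NC libraries and 0.0459, 0.0286 and 0.0518 in the LINC00862 libraries (log2 fold change -3.52, standard error 0.35, adjusted p = 2.65e-05). ZFHX4, a zinc finger homeobox gene, had an FPKM of 3.70, 1.95 and 1.52 in the NC libraries and 0.210, 0.206 and 0.141 in the LINC00862 libraries (log2 fold change -3.49, standard error 0.31, adjusted p = 1.34e-05). The 2 genes fell by like amounts. A1BG-AS1 had an FPKM of 2.18, 3.23 and 3.83 in the NC libraries and 0.124, 0.500 and 0.147 in the LINC00862 libraries (log2 fold change -3.44, standard error 0.53, adjusted p = 0.000393), and its log2 fold change was -4.27 without LINC00862 replicate 2. A1BG, which encodes a plasma glycoprotein, had an FPKM of 1.32, 2.01 and 2.20 in the NC libraries and 0.0298, 0.0700 and 0.0912 in the LINC00862 libraries (log2 fold change -4.59, standard error 0.47, adjusted p = 3.27e-05). In both pairs the 2 genes fell together and no group overlapped with the other. H1-10-AS1 had an FPKM of 0.961, 1.53 and 1.74 in the NC libraries and 0.108, 0.165 and 0.143 in the LINC00862 libraries (log2 fold change -3.15, standard error 0.37, adjusted p = 8.45e-05). H1-10, a linker histone gene, had an FPKM of 57.4, 73.9 and 95.5 in the NC libraries and 19.0, 17.4 and 20.8 in the LINC00862 libraries (log2 fold change -1.82, standard error 0.23, adjusted p = 0.000139). The ratio of H1-10-AS1 to H1-10 fell by 1.25 (standard error 0.30, adjusted p = 0.00814 by limma) on the log2 scale, so the antisense gene fell more than the histone gene.

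Pairs more often moved together than apart. Of the 194 pairs with both genes tested, 73 were called in the same direction, 56 up and 17 down, and 22 in opposite directions. In 34 pairs the antisense gene alone was called, 28 of them higher, in 38 the sense gene alone and in 27 neither. Across pairs the log2 fold changes of antisense and sense genes had a Spearman coefficient of 0.447 and a Pearson coefficient of 0.665 (n = 194), as a description, since both genes of a pair come from the same libraries and may share reads. The sign was the same in 60.8% of the pairs. For comparison, the coefficient was 0.628 in 331 other antisense-named pairs (68.9% with the same sign) and 0.410 in 1141 pairs of protein-coding genes on opposite strands with starts within 1000 bases (67.9%).

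**Figure D3:**
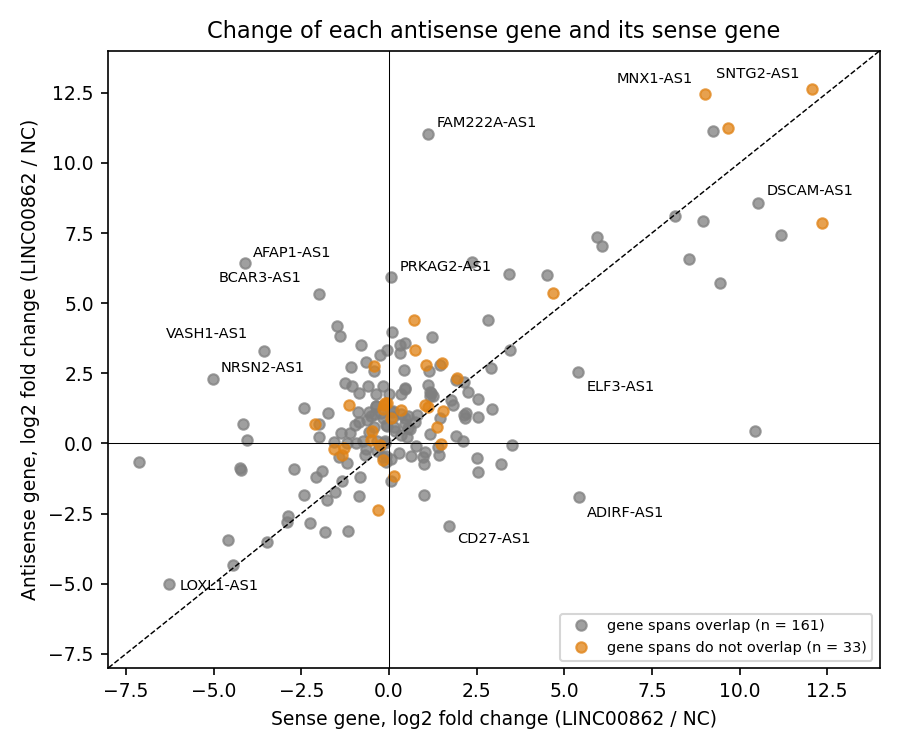
Fitted log2 fold change of each antisense gene (y axis) against that of its sense gene (x axis) for 194 pairs, coloured by whether the gene spans overlap, with the dashed line where both changes are equal. Pairs in the upper left and lower right moved apart, led by AFAP1-AS1 and ADIRF-AS1, and the points at the upper right include genes with no reads in NC, whose fitted values are no bounds.

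To learn whether an antisense gene changed differently from its sense gene, the log2 ratio of their CPM, the counts scaled to library size, was tested with limma, adjusted over all 525 antisense-named pairs of the table with both genes tested. The background share of pairs called was 49.9%. Among the 194 pairs studied 113 (58.2%) were called, 85 with a higher and 28 with a lower ratio in LINC00862, and the median change was 0.81 against 0.74 over all 525 pairs. All 22 pairs called in opposite directions were called by the ratio, as were 30 of the 73 that moved together. For the 22 this was nearly given in advance, since the ratio uses the same counts and opposite changes add up in it. In the 331 other pairs 32.3% were called higher and 12.7% lower.

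AFAP1-AS1 had the most reads of any antisense gene studied and moved furthest from its sense gene. AFAP1-AS1 (ENSG00000272620, chr4:7754077-7778928), an RNA known to be raised in several carcinomas, had an FPKM of 0.424, 0.167 and 0.171 in the NC libraries and 20.0, 20.5 and 16.8 in the LINC00862 libraries (log2 fold change 6.42, standard error 0.36, adjusted p = 8.26e-07). AFAP1, which encodes an actin filament associated protein, had an FPKM of 23.1, 12.7 and 12.6 in the NC libraries and 0.874, 0.762 and 0.795 in the LINC00862 libraries (log2 fold change -4.11, standard error 0.24, adjusted p = 1.06e-06). In NC the sense gene was higher in each library and in LINC00862 the antisense gene was, and the log2 ratio changed by 10.59 (standard error 0.21, adjusted p = 4.48e-09). The genes overlap tail to tail and share 523 bases of exon sequence.

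VASH1-AS1 had an FPKM of 0.0508, 0.211 and 0.511 in the NC libraries and 2.79, 2.48 and 1.86 in the LINC00862 libraries (log2 fold change 3.30, standard error 0.65, adjusted p = 0.00182), with a wide spread in NC that stayed below LINC00862, and a log2 fold change of 4.30 without NC replicate 3. VASH1, which encodes a vasohibin, had an FPKM of 2.05, 1.55 and 1.82 in the NC libraries and 0.139, 0.0424 and 0.214 in the LINC00862 libraries (log2 fold change -3.55, standard error 0.51, adjusted p = 0.000268), and was at -4.14 without LINC00862 replicate 3. The order of the 2 genes was reversed between the groups in every library. NRSN2-AS1 had an FPKM of 0.399, 0.441 and 0.389 in the NC libraries and 1.83, 1.71 and 1.91 in the LINC00862 libraries (log2 fold change 2.31, adjusted p = 1.74e-05). NRSN2, the gene of a vesicle membrane protein, had an FPKM of 20.5, 21.4 and 26.1 in the NC libraries and 0.574, 0.592 and 0.655 in the LINC00862 libraries (log2 fold change -5.02, adjusted p = 1.67e-07). No exon of this pair overlaps in GENCODE 29. The replicates of this pair were tight, and the antisense gene again exceeded the sense gene only in LINC00862.

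BCAR3-AS1 lies inside BCAR3, the gene of an adaptor protein of focal adhesions. It had an FPKM of 0.196, 0.109 and 0.0761 in the NC libraries and 4.50, 5.62 and 4.38 in the LINC00862 libraries (log2 fold change 5.32, adjusted p = 1.69e-06). BCAR3 had an FPKM of 14.2, 13.0 and 13.1 in the NC libraries and 2.76, 3.62 and 2.51 in the LINC00862 libraries (log2 fold change -2.01, adjusted p = 5.10e-06). The antisense gene exceeded BCAR3 in each LINC00862 library and in no NC library. TMEM51-AS1 had an FPKM of 0.0152, 0.0551 and 0.00499 in the NC libraries and 0.350, 0.338 and 0.546 in the LINC00862 libraries (log2 fold change 4.17, adjusted p = 0.000785), or a log2 fold change of 5.48 without NC replicate 2. TMEM51, a transmembrane protein gene, had an FPKM of 13.5, 14.0 and 16.6 in the NC libraries and 5.30, 4.93 and 3.90 in the LINC00862 libraries (log2 fold change -1.48, adjusted p = 7.73e-05). Unlike AFAP1, VASH1, NRSN2 and BCAR3, TMEM51 remained above its antisense gene in every library.

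In 3 of the 22 pairs the antisense gene fell and the sense gene rose: ADIRF-AS1, FAM13A-AS1 and ENTPD1-AS1. ADIRF-AS1, whose span holds all of ADIRF, had an FPKM of 1.50, 1.56 and 1.60 in the NC libraries and 0.291, 0.510 and 0.315 in the LINC00862 libraries (log2 fold change -1.89, standard error 0.27, adjusted p = 0.000255). ADIRF, named for its role in fat cell formation, had an FPKM of 0.0230, 0.0275 and 0.0108 in the NC libraries and 1.50, 0.691 and 1.75 in the LINC00862 libraries (log2 fold change 5.42, standard error 0.67, adjusted p = 0.000105). FAM13A-AS1 fell by 1.02 and FAM13A rose by 2.54, and ENTPD1-AS1 fell by 1.83 and ENTPD1, an ectonucleotidase, rose by 1.01, on the log2 scale. ENTPD1-AS1 was at -1.14 without NC replicate 1, and its call was lost with limma on log2(FPKM + 1), at -0.20. The log2 ratio of the ADIRF pair fell by 6.21 (standard error 0.64, adjusted p = 0.000149). ADIRF-AS1 and ADIRF were each separated between the groups without overlap. UBA6-AS1, whose promoter window is shown above, was 1 of the 19 in the other direction, with an FPKM of 0.492, 0.434 and 0.342 in the NC libraries and 1.04, 0.938 and 0.931 in the LINC00862 libraries (log2 fold change 1.38, adjusted p = 0.000218). UBA6, a ubiquitin-activating enzyme, had 7.83, 5.29 and 4.38 in the NC libraries and 2.18, 2.57 and 2.19 in the LINC00862 libraries (log2 fold change -1.14, adjusted p = 0.000605). The spans of the UBA6 pair do not overlap, and it was the only such pair among the 22. Beside the pairs described here and by list below, antisense genes that rose while their sense gene fell were CBR3-AS1, FBXL19-AS1, KTN1-AS1, PITPNA-AS1, PLS3-AS1, PPM1F-AS1, PTOV1-AS1 and RALY-AS1. Their log2 fold changes ran from 0.99 to 3.84 and those of the sense genes from -1.41 to -0.44. Leaving out a single library moved some of these values or ended a call. PITPNA-AS1 kept its call at 1.97 without LINC00862 replicate 1, and PTOV1-AS1 kept its call at 4.55 without NC replicate 3. Leaving out LINC00862 replicate 3 ended the call of CBR3 (-1.10), PITPNA (-0.36), PPM1F (-0.42) and RALY-AS1 (1.08), and LINC00862 replicate 1 that of CBR3 (-0.97), KTN1 (-0.53) and PITPNA (-0.49). LINC00862 replicate 2 ended that of KTN1 (-0.55) and PITPNA (-0.47), and NC replicate 3 that of CBR3 (-0.68) and PITPNA (-0.39). With upper quartile scaling FBXL19, KTN1, PITPNA and PPM1F were not called. FBXL19-AS1, PLS3-AS1, PTOV1-AS1 and their sense genes kept their call and direction when any single library was left out.

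**Figure D4:**
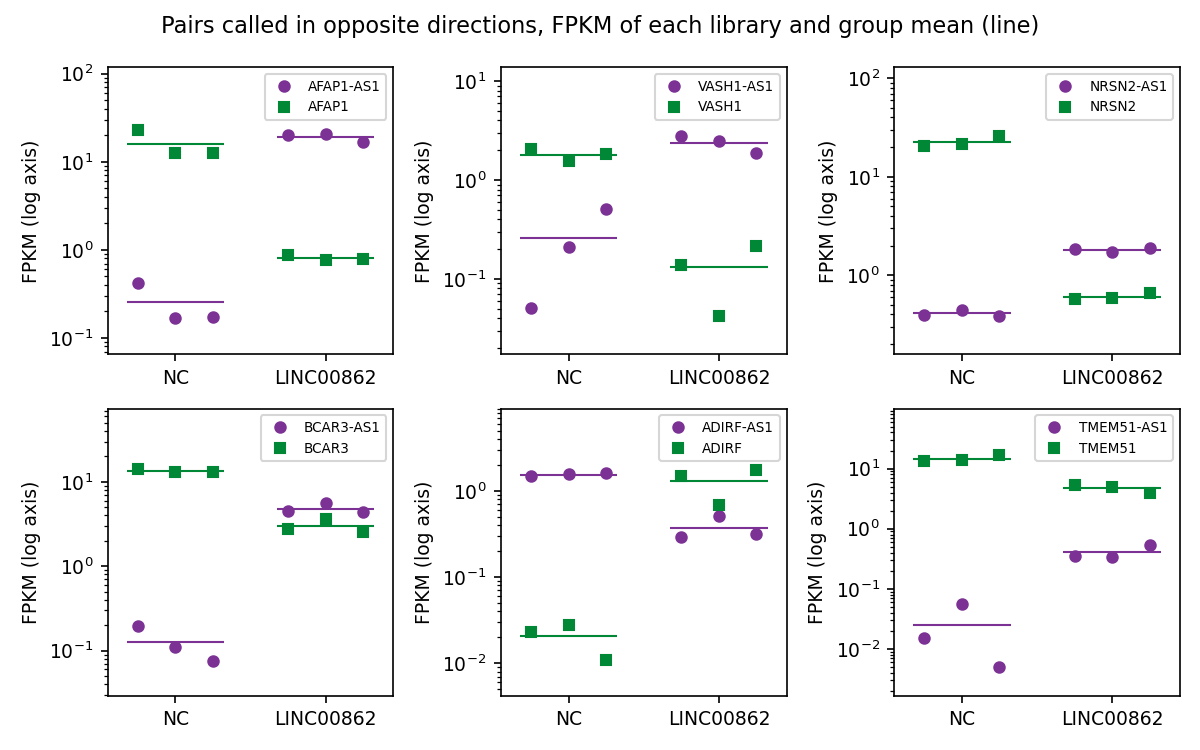
FPKM of each library (points, log axis) and group means (lines) for 6 pairs called in opposite directions, antisense genes as circles and sense genes as squares, in NC and LINC00862 (x axis). The circle and square levels cross between the groups in AFAP1, VASH1, NRSN2, BCAR3 and ADIRF and not in TMEM51.

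How alike the 2 changes of a pair were is described here by the arrangement of the genes. In 31 divergent pairs whose spans do not overlap, 13 moved in the same direction and 1 in opposite directions, with a Spearman coefficient of 0.631. In 81 divergent overlapping pairs the counts were 26 and 11 and the coefficient 0.398 (n = 79 tested). The 45 convergent overlapping pairs had 13 and 7 and a coefficient of 0.199 (n = 44 tested), and 21 antisense genes within their sense gene had 12 and 1 and a coefficient of 0.807 (n = 19 tested). The 20 pairs in which the sense gene lies within the antisense gene had 8 and 2 and a coefficient of 0.344 (n = 19 tested), and their median ratio change of -0.24 was the only negative value among these classes. Over all arrangements the coefficient was 0.405 in the 161 tested pairs with overlapping spans and 0.663 in the 33 without. The differences between these classes were not tested.

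**Figure D5:**
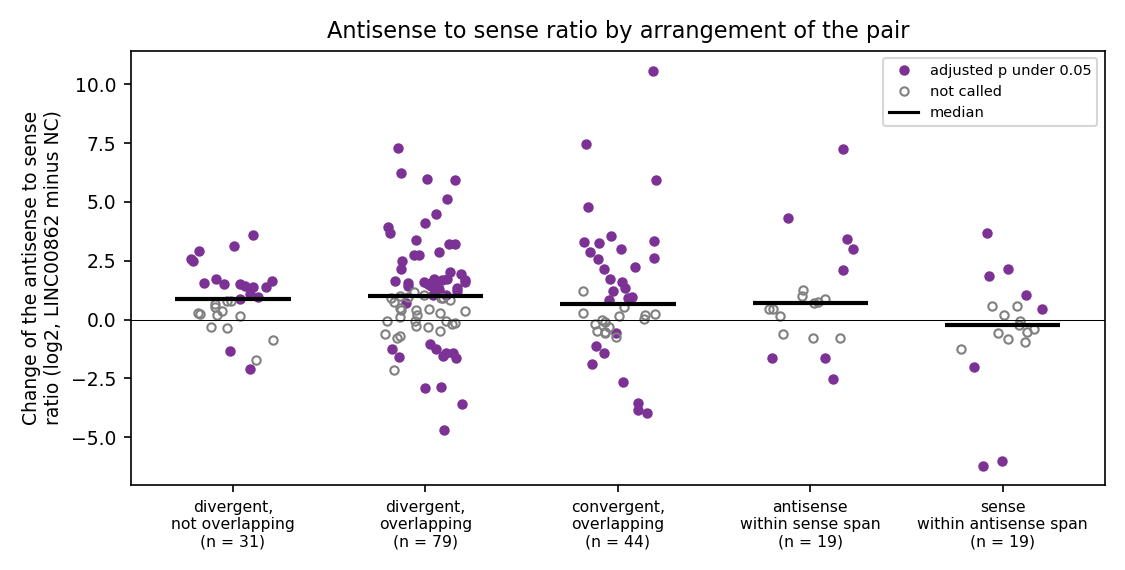
Change of the antisense to sense ratio (y axis, log2, LINC00862 minus NC) for each pair by arrangement of the genes (x axis), filled where the limma adjusted p lay under 0.05, with the median of each class as a line. The medians lie above 0 in 4 classes and at -0.24 where the sense gene lies within the antisense gene.

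Near head-to-head pairs, with starts within 1000 bases, numbered 76. Their antisense genes were higher in 45 and lower in 6, and 25 pairs moved together against 5 apart (Spearman coefficient 0.543). As a reference, 53.2% of all antisense genes studied were higher and 13.9% lower, and of all genes tested 34.4% and 29.8%. Among all pairs studied 73 moved together and 22 apart, with a coefficient of 0.447. Differences of the near pairs from these values were not tested. STXBP5-AS1, just above the limit of 500 counts, had counts of 142, 90 and 121 in the NC libraries and 45, 53 and 64 in the LINC00862 libraries and a weak call that several alternatives lost, among them leaving out LINC00862 replicate 1 or 2 or NC replicate 1 or 3, at log2 fold changes from -0.97 to -0.81 (all libraries: log2 fold change -0.99, adjusted p = 0.0373). STXBP5, which encodes a syntaxin-binding protein, had an FPKM of 3.09, 2.30 and 1.81 in the NC libraries and 0.618, 0.581 and 0.479 in the LINC00862 libraries (log2 fold change -1.92, adjusted p = 3.66e-05). The fall of the sense gene was the clearer of the pair.

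The antisense genes with the highest FPKM gave a mixed picture. C2CD4D-AS1 had the highest mean, with an FPKM of 0, 0.245 and 0.488 in the NC libraries and 54.2, 75.2 and 35.7 in the LINC00862 libraries (log2 fold change 7.85, standard error 0.66, adjusted p = 9.73e-06, or 8.81 without NC replicate 3), and C2CD4D, a gene of a C2 domain protein, had counts of 0 in each NC library and 662, 514 and 707 in the LINC00862 libraries, at least 670.0-fold higher. MIF-AS1 fell from 23.1 ± 5.05 to 8.24 ± 0.427 FPKM (SD, n = 3 each, log2 fold change -1.33, adjusted p = 0.000497 by edgeR), and MIF, a cytokine gene, fell by 1.34 on the log2 scale (adjusted p = 0.00177). The ratio of that pair changed by -0.03 (standard error 0.14, adjusted p = 0.884), and the pair shares 687 bases of exon sequence. RUSC1-AS1 had an FPKM of 8.60, 9.52 and 7.28 in the NC libraries and 17.6, 16.6 and 19.5 in the LINC00862 libraries and rose (log2 fold change 1.26, adjusted p = 0.000174), while RUSC1, an adaptor gene, fell (log2 fold change -2.41, adjusted p = 1.14e-06).

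The antisense genes were also listed by function of the sense gene, and differences between these lists were not tested. Of 12 antisense genes of transcription factors 8 were higher, 1 (TP73-AS1) was lower and 3 were not called, with a median log2 fold change of 1.72, beside 53.2% higher, 13.9% lower and a median of 0.95 over all 201. Among the 12 factor genes themselves 5 were higher and 2 lower. MNX1-AS1 and SOX21-AS1 are described above. ELF3-AS1 had an FPKM of 0.858, 0.750 and 0.888 in the NC libraries and 4.41, 4.52 and 4.11 in the LINC00862 libraries (log2 fold change 2.55, adjusted p = 1.87e-06), and ELF3, an epithelial ETS factor, rose more (log2 fold change 5.40), with a change of the ratio of -2.85 (standard error 0.22, adjusted p = 3.77e-05). ZEB1-AS1 rose (log2 fold change 2.14) while ZEB1, a factor of the mesenchymal state, fell (log2 fold change -1.25), the only opposite pair of this list.

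Of 10 antisense genes listed under adhesion, cytoskeleton and matrix, 6 were lower and 2 higher, with a median log2 fold change of -1.01. Over all 201 antisense genes 13.9% were lower and 53.2% higher, and over all genes tested 29.8% and 34.4%. In this list among 9 tested sense genes 6 were lower and 1 higher. The lower ones included LOXL1-AS1, STARD4-AS1, TTN-AS1, FGD5-AS1 and PXN-AS1, with log2 fold changes from -5.02 to -0.93, and the 2 higher were DSCAM-AS1 and AFAP1-AS1. STARD4 is known as a cholesterol transfer protein, so these counts include a pair that the name of the list does not cover. In 6 of the pairs both genes moved together, and in the AFAP1 pair they moved apart. PXN-AS1 was called weakly, and its call was lost with upper quartile scaling (-0.72) and without LINC00862 replicate 2 or 3 or NC replicate 1 or 3 (-0.99 to -0.67). Of the 5 mesenchymal markers named above, 4 fell between the same groups of libraries and COL1A1, a collagen gene, rose (log2 fold change 2.32). Their part in this was not tested.

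Of 10 antisense genes of signalling genes 4 were higher and 3 lower. PRKAG2-AS1 had an FPKM of 0, 0.151 and 0 in the NC libraries and 3.16, 2.35 and 3.19 in the LINC00862 libraries (log2 fold change 5.92, standard error 0.97, adjusted p = 0.000609). Without NC replicate 2, the only NC library with reads of it, the fitted log2 fold change was 10.94, which is no bound. PRKAG2, a subunit of the AMP-activated kinase, had an FPKM of 3.77, 3.27 and 3.04 in the NC libraries and 3.11, 3.01 and 3.17 in the LINC00862 libraries (log2 fold change 0.07, adjusted p = 0.686), with the NC and LINC00862 libraries of PRKAG2 overlapping. The ratio of the pair, whose starts lie 83 bases apart, changed by 5.93 (standard error 0.72, adjusted p = 0.000307 by limma). In the NC libraries without reads of PRKAG2-AS1 the ratio rests on the prior count added before the logarithm, so its size is no estimate. SOCS2-AS1 (log2 fold change 3.31) rose like SOCS2 (3.47), a suppressor of cytokine signals, and their ratio was not called. CD27-AS1 fell with an FPKM of 2.24, 2.90 and 2.87 in the NC libraries and 0.362, 0.294 and 0.255 in the LINC00862 libraries (log2 fold change -2.95, standard error 0.27, adjusted p = 1.71e-05), while CD27, a receptor of lymphocytes, had a log2 fold change of 1.71 that was not called (adjusted p = 0.131 by edgeR) but passed with limma on log2(FPKM + 0.1), at 0.87.

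Of 10 antisense genes of metabolic and transport genes 4 were higher and 2 lower. UGDH-AS1 and UGDH, the dehydrogenase that makes UDP-glucuronate, rose together (log2 fold changes 2.69 and 2.93). ATP6V0E2-AS1 rose by 2.61 where ATP6V0E2, a proton pump subunit, was not called (0.44) but was higher once NC replicate 3 was left out (0.70) or libraries were scaled by upper quartiles (0.65). SLC16A1-AS1, head to head with the lactate carrier gene SLC16A1, had an FPKM of 0.725, 0.681 and 0.622 in the NC libraries and 0.141, 0.0747 and 0.121 in the LINC00862 libraries (log2 fold change -2.38, standard error 0.30, adjusted p = 0.000119), and SLC16A1 was not called (-0.32, adjusted p = 0.106 by edgeR) unless NC replicate 3 was left out (-0.45) or library size alone was used (-0.50). The SLC16A1 ratio changed by -2.11 (standard error 0.32, adjusted p = 0.000928). SLC25A25-AS1 rose by 1.78 and SLC25A25, a mitochondrial carrier, fell (-0.86).

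In the list of cell cycle, chromatin, RNA and protein turnover, 9 of 25 antisense genes were higher, 3 lower and 13 not called, whereas 5 of the 25 sense genes were higher and 13 lower. Over all 201 antisense genes 53.2% were higher and 13.9% lower, over their 194 tested sense genes 37.6% and 30.9%, and over all genes tested 34.4% and 29.8%. Of the 25 pairs, 5 moved together and 3 apart. PSMG3-AS1 had an FPKM of 0.128, 0.0870 and 0.0686 in the NC libraries and 0.648, 0.642 and 0.478 in the LINC00862 libraries (log2 fold change 2.78, standard error 0.32, adjusted p = 6.33e-05), and PSMG3, a proteasome assembly factor whose start lies 28 bases away, was not called (-0.43, adjusted p = 0.125 by edgeR). PSMG3 was called lower under 4 alternatives, library size scaling, both limma fits and leaving out NC replicate 1 (-0.63). PSMB8-AS1 rose by 2.26 together with PSMB8 (1.91), a subunit of the immunoproteasome. SBF2-AS1 rose (2.05) where SBF2 was not called (-0.17). SBF2 is known as a phosphatase-like protein of membrane traffic, so these counts too include a pair that the name of the list does not cover. The 134 antisense genes outside the 5 lists held 80 that were higher and 13 lower.

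Among the antisense genes that were not called, the smallest changes were those of MRPL20-AS1, TRIM52-AS1 and NIFK-AS1. MRPL20-AS1 had an FPKM of 5.29, 4.73 and 6.72 in the NC libraries and 5.37, 5.63 and 3.99 in the LINC00862 libraries (log2 fold change 0.00210, standard error 0.20). TRIM52-AS1 had 2.34, 3.05 and 3.60 in the NC libraries and 2.90, 2.28 and 2.81 in the LINC00862 libraries (-0.00716, standard error 0.27) and NIFK-AS1 0.977, 1.13 and 0.892 in the NC libraries and 0.969, 0.790 and 0.923 in the LINC00862 libraries (0.02, standard error 0.24). The groups overlapped in all of them. Their sense genes were all called: MRPL20, of the mitochondrial ribosome, fell by 0.94, TRIM52 rose by 1.48 and NIFK, a nucleolar protein, fell by 1.20, on the log2 scale. Without LINC00862 replicate 3 the call of TRIM52 was lost (1.27). The ratio was called for MRPL20 and NIFK and not for TRIM52 (adjusted p = 0.0644 by limma).

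The median of the antisense genes was positive under each scaling, at 0.95 with TMM, 1.17 by upper quartiles and 0.78 by library size alone. Lower calls numbered 28, 24 and 38 in the same order. The median of all genes moved from 0.11 with TMM to 0.32 when scaled by upper quartiles and to -0.05 by library size alone. Under these and DESeq2's scaling the antisense median lay 0.83 to 0.84 above it. A scaling shifts all genes nearly alike, so this distance could hardly change and gives no support. Higher genes made up 79.3% of the antisense genes called with TMM, 83.1% by upper quartiles and 72.5% by library size alone. For the sense genes the share was 54.9%, 60.6% and 47.8%, so that their balance of higher and lower turned with the scaling.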

How the data were processed

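Each gene has, as deposited by the authors, a raw read count and an FPKM for every library; FPKM scales the count by transcript length and mapped fragments. The submitters' processing notes name the build hg38 and cutadapt 1.9, HISAT2 2.0.4, UMI-tools, StringTie 1.3.4d, DESeq2 and edgeR. Whether duplicate molecules were collapsed and whether counting used the strand is not given in the sources used here. Samples were grouped by their labels.

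Counts of all genes were filtered with filterByExpr, scaled by TMM and tested with edgeR 4.0.16 (R 4.3.3) by its quasi-likelihood test, adjusted by the Benjamini-Hochberg method at 0.05. Standard errors were derived from the test statistic. Ratios of antisense to sense log2 CPM (prior count 2) were tested with limma 3.58.1 over 525 pairs. With 3 libraries a group an exact permutation test cannot give a p below 0.1. Totals were 58241123 to 68229070 counts. A floor of 3 counts over the group was used for folds against 0, and floors cover counting error only. Gene spans are those of the deposited table, exon overlaps those of GENCODE 29, and promoters those of RefSeq. Sense genes were matched by name. A named sense gene was protein-coding by its first listed type in 163 of the 201 pairs. The antisense genes, gene lists and tests were chosen with earlier results of these data known. Named were the 6 largest rises and falls among called genes without overlap, the 6 opposite pairs with the largest smaller change, the 4 highest in FPKM, the 3 smallest changes, the genes at the count limit, and up to 4 of the largest changes per list. ZEB1-AS1, PXN-AS1, the other opposite pairs and the antisense genes of untested sense genes were added after their values were seen. Some genes that these rules name are not reported here.

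On simulated counts of 20013 tested genes, edgeR called 47.5% of 200 changed genes (29.9% at 2-fold, 67.7% at 4-fold) and 12 unchanged genes, and limma called 55% of 60 changed ratios among 525 pairs and 3 unchanged ones. The simulations changed a smaller part than the data, where 64.2% of all genes tested and 49.9% of the 525 ratios were called. Adjusted p-values depend on that part, so these figures do not give the recovery or the false calls of this comparison. Alternatives were DESeq2 1.42.0, other scalings, filters, thresholds and count limits, a replicate block, leaving out each library, limma on log2(FPKM + 1) and log2(FPKM + 0.1), and pairs without overlap.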

Additional observations from a re-analysis of the deposited data

How the results depend on the processing

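Counts of calls stayed within 1.5 times the reported values under every alternative except those that change how many pairs enter. A minimum of 100 counts in place of 500 gave 246 antisense genes called (194 higher, 52 lower), 278 sense genes called, 145 pairs in the same and 35 in opposite directions and a Spearman coefficient of 0.533. A minimum of 1000 gave 48 pairs in the same direction and a coefficient of 0.401. In the pairs without overlap, 24 antisense genes were called (21 higher, 3 lower), 14 pairs moved together, 1 apart and 18 changed in ratio, with a coefficient of 0.663. The coefficient was 0.377 on log2(FPKM + 1), 0.425 on log2(FPKM + 0.1) and 0.665 by Pearson. Leaving out each library in turn gave 124 to 140 antisense genes called (99 to 112 higher, 25 to 28 lower), 120 to 143 sense genes, 62 to 74 pairs in the same and 18 to 31 in opposite directions, 93 to 112 ratios and coefficients of 0.426 to 0.462. Replicate numbers did not pair libraries: deviations of same-numbered libraries correlated at -0.049, -0.025 and -0.0074. With a replicate block 125 antisense genes, 122 sense genes and 107 ratios were called, with 62 pairs in the same and 18 in opposite directions.

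Of 1526 values of 109 named genes under the alternatives, 1436 kept direction and call, 52 lost and 10 gained a call, and 28 changed sign, all of the latter in genes that were not called. These were, with library size scaling, log2(FPKM + 1) and log2(FPKM + 0.1), MRPL20-AS1 (-0.15, -0.13 and -0.16), NIFK-AS1 (-0.15, -0.077 and -0.14) and PRKAG2 (-0.10, -0.086 and -0.11). MRPL20-AS1 was -0.013 with every gene of at least 1 count, and IDI2-AS1 -0.043 on log2(FPKM + 0.1). TRIM52-AS1 was 0.043 with DESeq2, 0.20 by upper quartiles and 0.012 with the block, and SBF2 0.049 by upper quartiles. Without each library in turn the ranges were -0.096 to 0.20 for MRPL20-AS1, -0.054 to 0.13 for NIFK-AS1, -0.19 to 0.19 for TRIM52-AS1, -0.42 to 0.20 for SBF2 and -1.37 to 1.55 for IDI2-AS1. The causes were not tested. The 3 libraries a group and low counts limit the antisense genes near 500 counts.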

Other observations

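Other genes named for their place beside a gene were tested in the same comparison. Over all genes tested 34.4% were higher and 29.8% lower. Long noncoding RNA genes with at least 500 counts that were not studied here had 54.4% and 17.4%, with a median of 1.11. Apart from the last 5 genes, the groups below had no such minimum, and differences between the shares were not tested. Of 87 tested divergent transcripts, whose names end in -DT, 42 (48.3%) were higher and 6 (6.90%) lower in LINC00862, with a median log2 fold change of 1.15. GAS6-DT had 685, 638 and 638 counts in the NC libraries and 14, 21 and 12 in the LINC00862 libraries, and KLHDC7B-DT had 6, 8 and 2 against 224, 146 and 237. Of 28 tested names ending in -AS2 or higher, 12 (42.9%) were higher and 5 (17.9%) lower. HDAC2-AS2 had 147, 157 and 239 counts in NC and 4, 0 and 0 in LINC00862, and MAGI2-AS3 had 2589, 1994 and 1486 against 94, 72 and 139. Among 11 tested names ending in -AS, 4 (36.4%) were higher and 3 (27.3%) lower. Among 18 ending in -IT1 the counts were 6 (33.3%) and 2 (11.1%), and among 4 ending in -OT1, 0 and 1. TGFB2-OT1 was that lower gene, with 25, 29 and 462 counts in NC and 4, 2 and 13 in LINC00862, so that NC replicate 3 held most of its reads. Of 293 tested -AS1 genes with a sense gene but under 500 counts, 112 (38.2%) were higher and 37 (12.6%) lower, with a median of 0.93. Of 22 tested HOX, ZNF and LINC names ending in -AS1, 6 (27.3%) were higher and 4 (18.2%) lower, and of the 5 above 500 counts without a listed sense gene, 4 were higher.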
